A study of Mus musculus and Homo sapiens with 30 samples.

Results

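The heat shock chaperones examined here are 10 mouse genes, chosen by name: the cytosolic HSP70 genes Hspa1a, Hspa1b and Hspa8, the HSP110 gene Hsph1, the HSP90 gene Hsp90aa1, the HSP40 co-chaperone Dnajb1, the HSP70 co-chaperone Bag3, the small heat shock protein gene Hspb1 and the mitochondrial chaperonin genes Hspd1 and Hspe1. They were taken from the 56980 gene IDs of the mouse table, and 6 human counterparts (HSPA1A, HSPA1B, HSPA8, HSPH1, DNAJB1 and HSPB1) were taken by their IDs from the 61552 of the human table, which makes 16 of 118532 IDs in all. RNA was sequenced from 30 libraries of 3 established lines. SkBr3 comes from a human breast cancer and had 4 libraries per medium. E0771, from a mouse mammary tumour, and NMuMG, an epithelial line of normal mouse mammary gland, had 3 each, and the labels list all of them as breast cancer. Cells grew for 36 h and then spent 16 h in 1 of 3 media: standard growth medium (control), or an equal mixture of that medium (50%) with medium conditioned by inguinal adipocytes from a lean or from an obese source, called here the lean and the obese secretome. All cells had DMEM with 10% FBS, and the NMuMG medium also held insulin at 10 mcg/ml and glucose at 4.5 g/L, so that between E0771 and NMuMG the line and its growth medium cannot be told apart. The control held no secretome, so that lean against obese is the comparison matched for it. The labels do not name the species of the adipocytes. The series is titled for a link between a lipid product of lean breast fat cells and ferroptosis, a form of cell death that follows oxidation of membrane lipids.

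Chaperones help proteins fold and keep unfolded ones from clumping. In the heat shock response, unfolded protein draws chaperones away from the transcription factor HSF1, which then forms trimers and binds heat shock elements, repeats of the unit GAA in alternating orientation, in front of chaperone genes. HSP70 binds short unfolded stretches with the help of HSP40 partners, HSP110 and BAG proteins make HSP70 release its nucleotide, HSP90 finishes the folding of kinases and receptors, and HSPD1 with its lid HSPE1 folds proteins inside mitochondria. Cancer cells often carry high levels of several of these proteins in the absence of heat.

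The promoters were looked at first, because they show which members share regulatory sequence and which genes reads could confuse. RefSeq promoters on GRCm38.p6 (250 bases before to 50 bases after a start) were held for 8 of the 10 mouse genes, and Hspa8 and Hsp90aa1 had no entry. The counts themselves were made on GRCm39, and no coordinate was carried between the builds. A heat shock element of 3 units (GAANNTTC followed directly by NNGAA, or TTCNNGAA followed directly by NNTTC, which together cover both strands) was found for 3 of those 8 genes, Hspd1, Hspe1 and Hsph1, against 0.662% of all 27025 genes in the promoter table. The shorter form of 2 units (GAANNTTC or TTCNNGAA), which lies inside every longer match, was found for 7 of 8, all but Dnajb1, against 17% of all genes there. These matches are letters in a window and no evidence of binding. Only exact units were counted, so a site with a differing base in a unit was passed over. A gene without a match may still hold such a site. The sites of 29 bases below show matches of 3 units in capitals. Hspd1 and Hspe1 are read in opposite directions from 1 shared stretch of chromosome 1. The Hspd1 line and the second Hspe1 line are the same bases on opposite strands, and the first Hspe1 line overlaps them. A further Hspd1 match, from base -139 to base -127, is the first Hspe1 match on the other strand and is not printed.
Hspd1 (chr1:55088056-55088084, minus strand): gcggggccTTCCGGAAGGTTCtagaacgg
Hspe1 (chr1:55088051-55088079, plus strand): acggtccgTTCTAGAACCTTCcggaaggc
Hspe1, second match (chr1:55088056-55088084, plus strand): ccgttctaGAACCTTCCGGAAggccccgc
Hsph1 (chr5:149636280-149636308, minus strand): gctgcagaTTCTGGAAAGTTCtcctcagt
The Hspe1 matches lie before its start, from base -89 to base -72, and the Hsph1 match lies after the start, from base 16 to base 28 of the nearer of its 2 annotated starts.

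Hspa1a and Hspa1b, neighbouring HSP70 genes on chromosome 17, are shown over the 250 bases before their starts because these are nearly the same: 296 of the 300 bases held for each were identical, and both carry the same match of 2 units (capitals) from base -104 to base -97.
Hspa1a (chr17:34972157-34972406, minus strand): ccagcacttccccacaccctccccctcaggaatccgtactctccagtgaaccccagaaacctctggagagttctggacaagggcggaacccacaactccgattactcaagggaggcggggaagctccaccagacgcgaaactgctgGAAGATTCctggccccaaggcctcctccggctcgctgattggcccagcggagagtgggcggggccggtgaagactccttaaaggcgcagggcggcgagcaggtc
Hspa1b (chr17:34959239-34959488, minus strand): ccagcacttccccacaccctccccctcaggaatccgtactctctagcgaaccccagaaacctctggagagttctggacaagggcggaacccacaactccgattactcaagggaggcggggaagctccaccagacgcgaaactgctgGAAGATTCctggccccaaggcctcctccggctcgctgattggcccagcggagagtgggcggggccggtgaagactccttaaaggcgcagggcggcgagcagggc
Their transcripts are alike as well: 38.1% of the 150-base windows of Hspa1a, the length of 1 read, occur letter for letter in Hspa1b. How reads that match both were assigned is not given in the sources used here, so their split is uncertain, and the sum of the pair is given beside them. Windows shared with any other gene made up 55.4% of Hspa8, 36.2% of Hsp90aa1, 36.6% of Hspb1, 18.6% of Hspd1 and 14.1% of Hspe1, mostly with copies annotated as pseudogenes or gene models, and 0 of the windows of Hsph1, Dnajb1 and Bag3.

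Library totals ran from 22929035 to 31094119 counts in E0771, from 23966897 to 29686456 in NMuMG and from 18479433 to 29195499 in SkBr3. Levels are given as CPM, counts scaled to the library total and by TMM, and a gene is called where edgeR's quasi-likelihood F test over all genes of the line gave a Benjamini-Hochberg adjusted p under 0.05. The labels do not say whether the libraries of a group came from separate cultures, so p-values measure only the spread between these libraries, which may be technical. Of 6 epithelial markers, NMuMG had 5 above 1 CPM, whereas in E0771 Krt8 (229 to 259 CPM) was the 1 marker above 1 CPM, with Krt19 and Cldn3 at 0 counts in all 9 libraries. Adipocyte markers summed to at most 0.262 CPM in any E0771 library and 2.08 CPM in any NMuMG library. In E0771 the summed level of 6 mesenchymal markers, led by Vim and Col1a1, was 2199 to 2430 CPM with the lean secretome, below the 3334 to 3639 CPM with the obese secretome and the 3775 to 3914 CPM of the controls. It was lowest with the lean secretome, where most tested members were called higher in E0771 (below). Its part in their differences was not tested. In bulk RNA fewer cells of a type and less RNA per cell cannot be told apart.

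In control medium the members spanned a wide range, set on the scale of CPM per kilobase of annotated exon (GENCODE M21) so that genes can be compared roughly. The length was the union of all annotated exons of a gene, which can exceed that of any 1 transcript. For Hsph1 it was 7266 bases, while its longest coding transcript held 3653 windows of 150 bases. Close ranks and ties between genes below therefore hold for this length only. In E0771 Hspa8, the constitutive HSP70, stood first at 890 ± 19.4 CPM per kilobase (SD, n = 3, as for each mouse group below). Hspd1 (347 ± 7.32) and Hsp90aa1 (345 ± 6.20) came next and did not differ beyond their spread on this scale. Hspe1 (115), Hsph1 (55.7), then Dnajb1 (33.9) and Bag3 (33.5), again within their spread, were followed by Hspa1b (3.40) and Hspa1a (0.0774). NMuMG kept Hspa8 (482 ± 11.1), Hspd1 (382 ± 6.32) and Hsp90aa1 (300.4 ± 6.34) in front and Hspa1a (2.28) last, with Hspb1 (42.5) and Hsph1 (41.5) within their spread of each other.

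Between the 2 control groups edgeR called 8 of the 10 members, 3 higher and 5 lower in E0771, where 80.5% of all 16529 genes were called. Hspb1 passed the filter on low counts only through NMuMG, where it is high. Hspa1a had at most 9 counts in any E0771 control library. Without both, 6 of 8 members were called, 3 higher and 3 lower. Hspb1, the small heat shock protein HSP25, had 0 counts in each of the 9 E0771 libraries (3 counts, taken as the floor, would be 0.0958 to 0.131 CPM) and 912 to 1238 counts in each NMuMG library. In control medium it was at least 333-fold higher in NMuMG, where it averaged 43.8 ± 2.32 CPM. Of the genes directly beside it in the annotation order, Ywhag had 13669 to 22088 counts in E0771 and 10876 to 14775 in NMuMG, whereas Srrm3 had 0 to 2 and 0 to 1. Next but one, Mdh2 had 9629 to 11970 and 10657 to 12956 counts, and Ssc4d had 171 to 220 and 29 to 61. Hspa1a (0.230 ± 0.160 CPM in E0771, 6.77 ± 0.815 in NMuMG) and Hspa1b (9.53 ± 1.63 and 34.7 ± 1.53) were lower in E0771, by log2 differences of -5.03 (SE 0.30, adjusted p = 3.21e-17) and -1.98 (SE 0.24, adjusted p = 4.99e-06). Summed, the pair was at 9.76 ± 1.6 CPM in E0771 controls and 41.4 ± 2.26 CPM in NMuMG controls (-2.20, SE 0.24, adjusted p = 1.37e-06). Hspa1a held 0.837% to 4.52% of the counts of the pair in the E0771 libraries, 11.1% to 17.7% in NMuMG and, for the human genes, 51.3% to 59.2% in SkBr3.

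Dnajb1, the HSP40 that feeds substrates to HSP70, was higher in E0771 by 0.71 (SE 0.05, adjusted p = 1.60e-17), and Hsph1 by 0.30 (SE 0.09, adjusted p = 0.00554). Hspd1 (-0.26) and Hspe1 (-0.16) were lower, and Hsp90aa1 (0.08, adjusted p = 0.0587) and Bag3 (-0.08, adjusted p = 0.247) were not called. With scaling to the library total alone, which moved the median of all genes by 0.11 in this comparison, Hsp90aa1 was called (0.19) and Hspe1 was not (-0.05). Without E0771 control replicate 1 or NMuMG control replicate 3, Hsp90aa1 was also called (0.09 in both fits). Hspa8 was higher in E0771 by 0.76 (SE 0.04, adjusted p = 3.51e-15), and this value rested in part on which copy took the reads. Gm15459, a gene model that shares windows with Hspa8, had 14377 to 20111 counts per library in NMuMG, 24.1% to 25.4% of the sum of Hspa8 and Gm15459, but 626 to 987 in E0771 (0.628% to 0.791%). With Hspa8 and its copies summed, an alternative chosen after seeing the data, the difference between the lines was 0.37 (adjusted p = 9.65e-09).

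**Figure D1:**
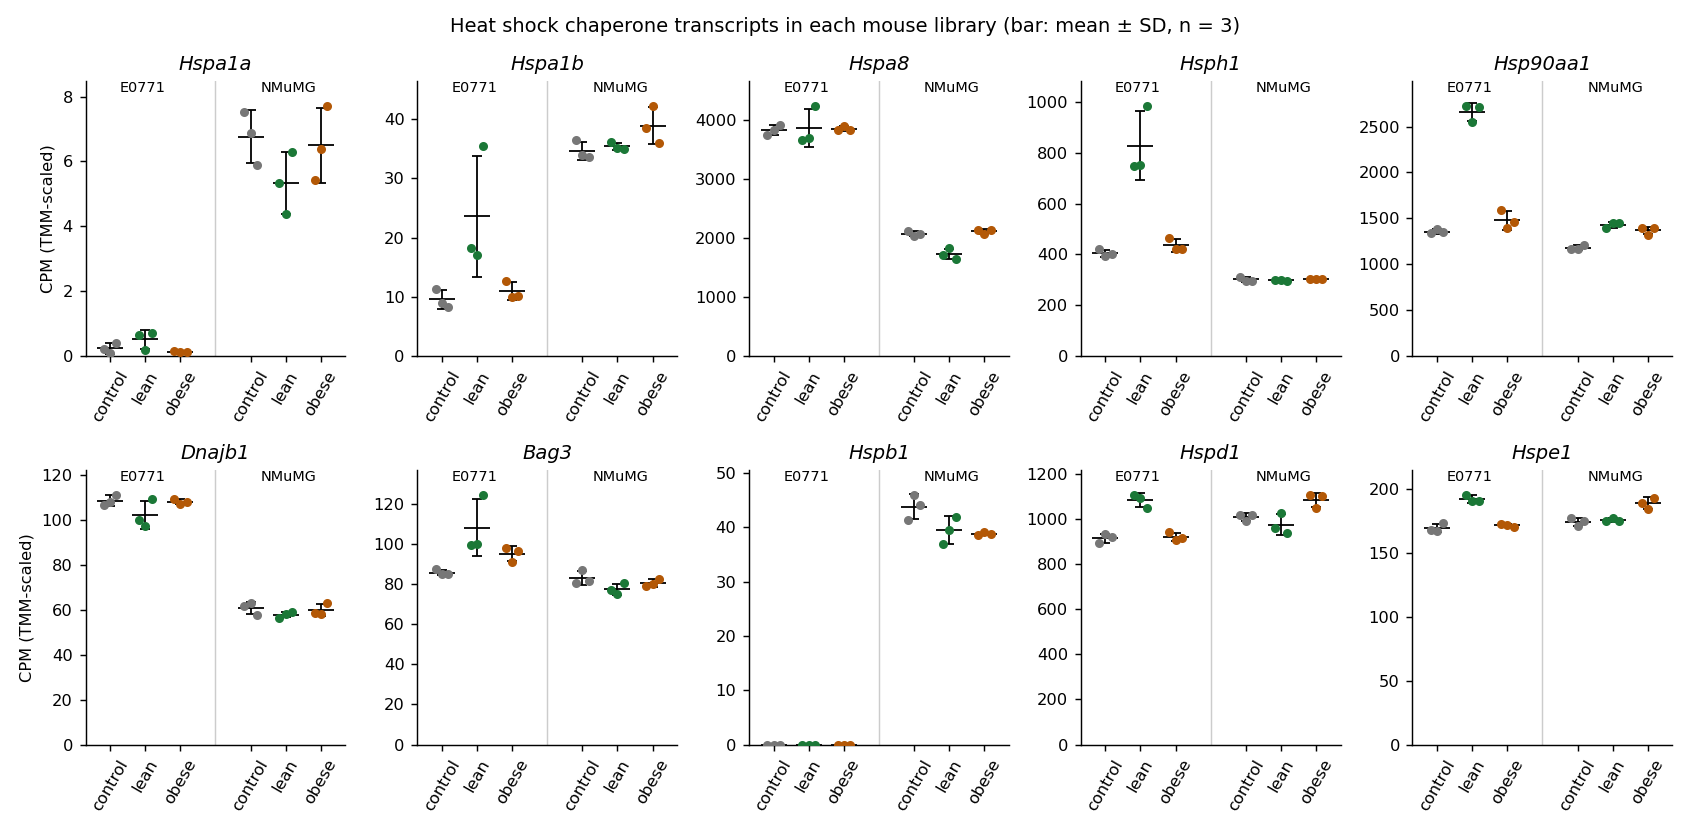
CPM of each of the 10 mouse members in every E0771 and NMuMG library (points) by medium, with the mean and SD (bars, n = 3), each panel on its own linear axis from 0. CPM was scaled within each line. Hsp90aa1 and Hsph1 stand higher in the 3 lean E0771 libraries than in any other library of either line, and Hspb1 lies at 0 in all 9 E0771 libraries.

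The main question was how the members differed between cells given the lean and the obese secretome. In E0771 9 of the 10 members could be tested, all but Hspb1, and 7 were called higher with the lean secretome and 0 lower, where 52.7% of all 13813 genes were called and 25.8% were called higher. Hspa1a passed the filter on low counts mainly through 2 lean libraries, and without it the count is 6 higher of 8. Hsph1, Hsp90aa1, Hspd1 and Hspe1 kept their calls in all 15 alternatives, whereas Hspa1b lost its call in 6 and Bag3 in 5. Hspa1a kept its call in the 12 alternatives that tested it. With only the lean and obese groups in the fit fewer members were called, as given in the section on processing. The median log2 fold change of the 9 members was 0.23, against 0.0035 over all genes tested. The lean and obese libraries did not overlap for 7 of the 9 members, against 60.1% of all genes. Absence of overlap in single members below is read against that share. As a share of all counts the 10 members summed to 0.887% ± 0.0505 with the lean secretome, 0.707% ± 0.0129 with the obese and 0.688% ± 0.00994 in control medium.

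Hsp90aa1, the inducible cytosolic HSP90, had the smallest p of the members and the 15th smallest of all genes. Its level was 2724, 2546 and 2713 CPM in the lean libraries, 1587, 1389 and 1457 CPM in the obese ones and 1334, 1382 and 1348 CPM in the controls. Every lean library was above every other, and the lean level was 1.80 times the obese one (log2 0.85, SE 0.04, adjusted p = 4.63e-13). Per kilobase of annotated exon it reached 677 ± 25.5 CPM, above Hspd1 at 410.4 ± 12.0, from which it did not differ beyond the spread in control medium on that scale. Its constitutive partner Hsp90ab1 was at 5092 ± 152 CPM (lean) and 4839 ± 99.3 CPM (obese) and was not called (0.07, adjusted p = 0.0633).

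Hsph1, the HSP110 that exchanges nucleotide on HSP70, was at 750.5, 751 and 986 CPM with the lean secretome and at 467, 423 and 419.6 CPM with the obese. The groups did not overlap, and the log2 fold change was 0.93 (SE 0.12, adjusted p = 0.000487), or 1.90-fold. Lean replicate 3 was well above the other 2 here, and it was also the highest of the 9 for Hspa1b, Bag3, Hspa8 and Hspa1a. Without it Hsph1 differed by 0.78 (adjusted p = 3.83e-14).

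Hspa1b, a heat-inducible HSP70, was at 18.3, 17.1 and 35.4 CPM with the lean secretome and at 12.7, 9.99 and 10.2 CPM with the obese. The groups did not overlap and the gene was called (1.12, SE 0.33, adjusted p = 0.0284), but the call depended on single libraries and settings. It was lost without obese replicate 1 (adjusted p = 0.0543), 2 (0.0901) or 3 (0.0881), while without lean replicate 3 the difference was smaller, 0.69, and its adjusted p was 2.54e-05. Hspa1a had only 18, 5 and 22 counts in the lean libraries and 4, 3 and 3 in the obese ones. Its fitted log2 fold change was 1.99 (SE 0.59, adjusted p = 0.00636), and the ratio of the pooled counts, 45 against 10, was 4.11 per library total with a 95% interval of 2.04 to 9.15 that covers counting error only. The sum of Hspa1a and Hspa1b averaged 24.1 ± 10.4 CPM in the lean libraries, 11.1 ± 1.53 CPM in the obese ones and 9.76 ± 1.6 CPM in the controls, and it was called for lean against obese (1.13, SE 0.33, adjusted p = 0.0272).

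The mitochondrial pair moved together and by less. Hspd1 was at 1109, 1095 and 1048 CPM with the lean secretome and at 944, 909.9 and 917 CPM with the obese (0.23, SE 0.03, adjusted p = 3.61e-06). Hspe1, which lies head to head with Hspd1, was at 195, 190.4 and 190.2 CPM and at 172, 172 and 170.2 CPM (0.16, SE 0.04, adjusted p = 0.000631). Neither pair of groups overlapped.

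Bag3, a co-chaperone that links HSP70 to the clearance of aggregated protein, was at 99.9, 100.2 and 125 CPM with the lean secretome and at 98.2, 91.3 and 96.6 CPM with the obese. It was called (0.18, SE 0.07, adjusted p = 0.0363), yet the call rested on lean replicate 3, without which the difference was 0.07 (adjusted p = 0.202). It was also lost without obese replicate 1 (0.0557), 2 (0.141) or 3 (0.0683), where the values are adjusted p.

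Dnajb1 and Hspa8 were the 2 tested members that were not called. Dnajb1 was at 99.9, 97.2 and 109 CPM with the lean secretome and at 109, 107 and 108 CPM with the obese (-0.08, SE 0.05, adjusted p = 0.145), and without lean replicate 3 it was called lower (-0.13, adjusted p = 0.0113). Hspa8 was at 3660.0, 3700.1 and 4234 CPM and at 3833, 3900.3 and 3819 CPM (0.01, SE 0.04, adjusted p = 0.930). In both genes 2 lean libraries lay below the obese ones, while lean replicate 3 lay within or above their range. Without lean replicate 3 the count of called members stayed at 7, of which 6 were higher and 1, Dnajb1, was lower.

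Set against control in E0771, lean secretome left 6 of 9 members called, all higher, where 56.3% of all genes were called and 27.3% were called higher. These comparisons share the lean libraries with the one above, and those with control share the control libraries with each other, so the values stand side by side and are not independent. Log2 fold changes were 0.97 for Hsp90aa1 (SE 0.04, adjusted p = 3.88e-14), 1.04 for Hsph1 (SE 0.12, adjusted p = 0.000245), 1.31 for Hspa1b (SE 0.34, adjusted p = 0.0154), 0.335 for Bag3 (SE 0.07, adjusted p = 0.000739), 0.24 for Hspd1 and 0.18 for Hspe1. For the summed pair Hspa1a and Hspa1b it was 1.30 (adjusted p = 0.0154). The Hspa1b call was lost without control replicate 2 (adjusted p = 0.0549) or 3 (0.0518). Hspa1a (1.19, adjusted p = 0.0582) was not called with all libraries but was called without control replicate 3 (1.78, adjusted p = 0.0248) or lean replicate 2 (1.58, adjusted p = 0.0114). Dnajb1 (-0.09) was not called, and without lean replicate 3 it was called lower (-0.14, adjusted p = 0.00730). Hspa8 (0.01) was not called.

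With the obese secretome edgeR called 0 of 9 members against control in E0771, where 2.61% of all genes were called; 1 member, Hsp90aa1, had an unadjusted p under 0.05, and DESeq2 called 0. The libraries did not overlap for 2 members, against 21.2% of all genes. Hsp90aa1 stood 0.125 higher on the log2 scale (SE 0.04, adjusted p = 0.114), with its 3 obese libraries above its 3 controls, and without obese replicate 2 it was called (0.18, adjusted p = 0.0312). Bag3 was the other (0.15, adjusted p = 0.326). The other 7 tested members overlapped, and their log2 differences ran from -0.79 for Hspa1a, on at most 9 counts a library, to 0.19 for Hspa1b.

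**Figure D2:**
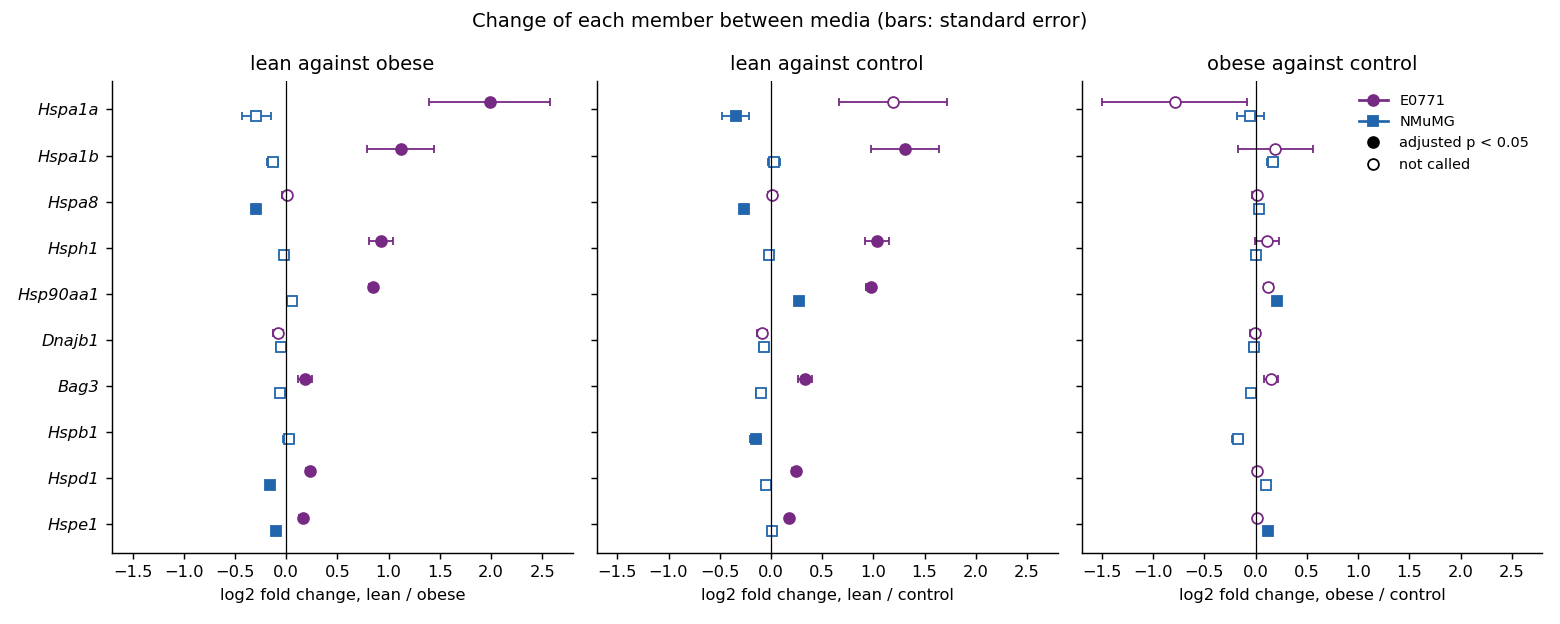
Log2 fold change (points) and standard error (bars) of each mouse member for lean against obese, lean against control and obese against control, in E0771 (circles) and NMuMG (squares), filled where the adjusted p was under 0.05; Hspb1 has no E0771 point because it had no counts there. In E0771 Hsp90aa1 and Hsph1 lie near 0.85 and 0.93 for lean against obese, while in NMuMG they lie at 0.06 and -0.02.

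NMuMG gave a different picture. Between the lean and the obese secretome 3 of 10 members were called, 0 higher and 3 lower, where 35% of all 15014 genes were called and 17.4% were called lower. The libraries did not overlap for 5 of the 10 members, against 45.2% of all genes. Hspa8 was at 1712, 1819.9 and 1643 CPM with the lean secretome and at 2136, 2067 and 2133 CPM with the obese, without overlap (-0.29, SE 0.03, adjusted p = 5.58e-09). Its copy Gm15459 differed by the same amount (-0.29, adjusted p = 2.29e-08). Hspd1 was at 961, 1029 and 938 CPM against 1106, 1051 and 1101 CPM (-0.15, SE 0.03, adjusted p = 0.000321). Hspe1 was at 175, 177 and 175 CPM against 189, 184 and 193 CPM (-0.10, SE 0.03, adjusted p = 0.0154), a call that was lost without obese replicate 3 (-0.08, adjusted p = 0.105).

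The members with the clearest differences in E0771 differed little here. Hsph1 was at 299.6, 298 and 294 CPM with the lean secretome and at 302, 302 and 302 CPM with the obese (-0.02, SE 0.03, adjusted p = 0.634). Hsp90aa1 was at 1395, 1444 and 1443 CPM against 1394, 1319 and 1390.3 CPM (0.06, SE 0.03, adjusted p = 0.116). Its lean libraries all lay above its obese ones, if narrowly, and 1 of 15 alternatives called it higher. Hspa1b was at 36.1, 35.2 and 35.0 CPM against 38.5, 42.2 and 35.9 CPM (-0.13, adjusted p = 0.0704) and was called lower without obese replicate 3 (-0.19, adjusted p = 0.0213). Summed with Hspa1a (-0.29 alone, adjusted p = 0.105, and called without lean replicate 3 or obese replicate 1), the pair was called lower (-0.15, adjusted p = 0.0233). Dnajb1 (-0.05), Bag3 (-0.06) and Hspb1 (0.02) were not called. Of the lists of cell type markers in NMuMG, the sum of 6 epithelial markers was 7801 to 8020 CPM with the lean secretome and 6730 to 7109 CPM with the obese, and that of 6 mesenchymal markers 1759 to 1802 and 1894 to 1966 CPM; their part in these differences was not tested.

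Set against control in NMuMG, 4 members were called with the lean secretome, 1 higher and 3 lower, where 38.2% of all genes were called. Hsp90aa1 was the 1 that rose, from 1167, 1166 and 1209.8 CPM in the controls (0.27, SE 0.03, adjusted p = 4.42e-09). Hspa8 fell, from 2123, 2029 and 2063 CPM (-0.26, SE 0.03, adjusted p = 2.85e-08). Hspb1, from 41.4, 46.0 and 44.0 CPM to 37.0, 39.5 and 42.0 CPM (-0.15, adjusted p = 0.0259), and Hspa1a, from 7.52, 6.88 and 5.90 CPM to 5.34, 4.38 and 6.30 CPM (-0.35, adjusted p = 0.0440), were called lower with overlapping libraries. The Hspb1 call was lost without control replicate 2 (adjusted p = 0.148) or 3 (0.0661) or lean replicate 1 (0.181), and the Hspa1a call without control replicate 1 (0.209) or 2 (0.114) or lean replicate 1 (0.0936) or 2 (0.235). In the other direction, Hspd1 was called without lean replicate 2 (-0.09, adjusted p = 0.0352) and Bag3 without lean replicate 3 (-0.13, adjusted p = 0.0285).

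The obese secretome gave 2 called members against control in NMuMG, where 5.01% of all genes were called. Hsp90aa1 was higher by 0.21 (SE 0.03, adjusted p = 1.39e-05), so that in this line both secretomes stood above control for this gene. Hspe1 was higher by 0.12 (SE 0.03, adjusted p = 0.0376), but its call was lost on leaving out any single control library (adjusted p = 0.0919 to 0.153) and without obese replicate 1 (0.0942) or 3 (0.195). Hspb1 (-0.17, adjusted p = 0.0549) and Hspd1 (0.10, adjusted p = 0.0590) were just short of the threshold and were called without control replicate 1 and without obese replicate 2, respectively. Hspa1b (0.16, adjusted p = 0.0981) was called without obese replicate 3.

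The difference between the mouse lines was tested itself, as a line-by-medium interaction over all 18 mouse libraries. For lean against obese, 8 of the 9 members that could be tested had a higher difference in E0771 than in NMuMG, where 34.2% of all genes were called and 18.8% were called higher; only Dnajb1 was not called among them (-0.01, adjusted p = 0.987). The E0771 minus NMuMG difference was 0.97 for Hsph1 (SE 0.12, adjusted p = 2.62e-05), 0.80 for Hsp90aa1 (SE 0.05, adjusted p = 7.52e-15), 0.40 for Hspd1 (SE 0.05, adjusted p = 1.17e-08) and 0.31 for Hspa8 (SE 0.06, adjusted p = 0.000144). Hspa8 itself differed by 0.01 in E0771 and by -0.29 in NMuMG. The smallest called difference, 0.26 for Bag3 (adjusted p = 0.0191), was lost without E0771 lean replicate 3 (0.15, adjusted p = 0.0677) or obese replicate 2 (0.23, adjusted p = 0.0522). For lean against control the interaction again called 8 of 9, all higher in E0771, where 34.5% of all genes were called and 19.4% were called higher; Hspa1a among them was lost without E0771 control replicate 2 (adjusted p = 0.0882), lean replicate 1 (0.0605) or lean replicate 3 (0.0957). For obese against control it called 0 of 9, where 1.69% of all genes were called; 1 member had an unadjusted p under 0.05 and DESeq2 called 0.

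Other genes of the chaperone network were read from 8 lists of 71 genes in all. In E0771 70 of them were tested between the lean and the obese secretome, and 36 were higher, 9 lower and 25 not called, where 25.8% of all genes were called higher and 26.9% lower, with a median log2 fold change of 0.13 against 0.0035 over all genes. In NMuMG 68 were tested, and 6 were higher, 14 lower and 48 not called, where 17.6% of all genes were called higher and 17.4% lower, with a median of -0.03. The counts of the single lists below are read against the same shares. Of 14 HSP90 genes and co-chaperones, 10 were higher and 2 lower in E0771. Those higher included Ahsa2, an activator of the HSP90 ATPase (0.50, adjusted p = 2.20e-08), the immunophilin Ppid (0.48), Chordc1 (0.44) and Stip1, the adaptor between HSP70 and HSP90 (0.35). The 2 lower were Fkbp5, an immunophilin that is also a known glucocorticoid target (-0.59, adjusted p = 1.22e-09), and Stub1, a ubiquitin ligase that works on chaperone clients (-0.37). In NMuMG 1 of the 14, Ahsa2 (0.13), was higher and 3 were lower, among them Fkbp5 (-0.35), Stub1 (-0.18) and Stip1 (-0.15).

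HSP40 co-chaperones had 6 of 9 higher and 0 lower in E0771, with Dnaja1 at 0.42 (adjusted p = 2.98e-09) and Dnajb2 at 0.37, and 0 higher and 1 lower (Dnajb5, -0.35) in NMuMG. Of the HSP70 and HSP110 relatives 5 were tested, and 3 were higher in E0771, with Hspa4, another HSP110, at 0.31 and Hspa13 at 0.22, and 0 lower. In NMuMG 1 of the 5, Hspa13 (0.23, adjusted p = 0.000500), was higher and 0 were lower. TRiC, the ring that folds actin and tubulin, had 6 of 8 subunit genes higher and 0 lower in E0771, with Cct3 at 0.36 and Cct8 at 0.28, and 0 higher and 3 lower in NMuMG, with Cct6a at -0.17 and Cct5 at -0.10. Mitochondrial chaperones and proteases had 5 of 10 higher and 2 lower in E0771: Grpel1, the nucleotide exchange factor of mitochondrial HSP70, was higher (0.45), and Trap1, the mitochondrial HSP90, was lower, at 132 ± 7.47 CPM with the lean secretome and 202 ± 5.53 CPM with the obese (-0.62, SE 0.04, adjusted p = 3.45e-11). Also in E0771, Hscb (0.41) was higher and Clpb (-0.38) was lower. In NMuMG 1 of the 10, Grpel1 (0.17), was higher and 3 were lower. Among those lower were Trap1 (-0.16) and Hspa9, the mitochondrial HSP70 (-0.15, adjusted p = 0.000148).

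Genes listed under small heat shock proteins, a grouping by name, went both ways. Cryab was higher in both lines, at 27.3 ± 6.43 CPM with the lean secretome and 15.8 ± 0.354 CPM with the obese in E0771 (0.80, adjusted p = 0.00519) and at 33.1 ± 1.76 and 22.2 ± 1.28 CPM in NMuMG (0.58, adjusted p = 4.37e-09), while Hspb6 was lower in both (-0.26 and -0.55). In E0771 Hspb8 (0.10, adjusted p = 0.0412) was also higher and Hspb11 (-0.27, adjusted p = 0.0478) was also lower. BAG genes had 1 of 6 higher in each line, Bag4 in E0771 (0.16) and Bag2 in NMuMG (0.24). The list of HSF factors and other stress genes, which also holds the cold-inducible Rbm3 and Cirbp, had 3 of 12 higher and 3 lower in E0771; without those 2 it had 3 of 10 higher and 1, Hsf4, lower. Hsf1 itself was at 115 ± 4.42 CPM with the lean secretome and 108 ± 3.31 CPM with the obese there and was not called (0.10, adjusted p = 0.0621), and it was not called in NMuMG (-0.07, adjusted p = 0.214). Hsf2, a related factor, was at 53.0 ± 1.92 and 38.3 ± 1.99 CPM in E0771 (0.47, adjusted p = 2.11e-07), and Zfand2a was higher (0.44). Hsf4 (-0.46), Cirbp (-0.44) and Rbm3 (-0.32) were lower in E0771. In NMuMG Rbm3 (-0.495, adjusted p = 1.15e-13) and Cirbp (-0.31) were among 3 lower of 11 tested, with 0 higher; without them 1 of 9, Cacybp (-0.20), was lower. With the obese secretome against control, 2 of 70 genes of the 8 lists were called in E0771, where 2.61% of all genes were, and 4 of 68 in NMuMG, where 5.01% were.

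**Figure D3:**
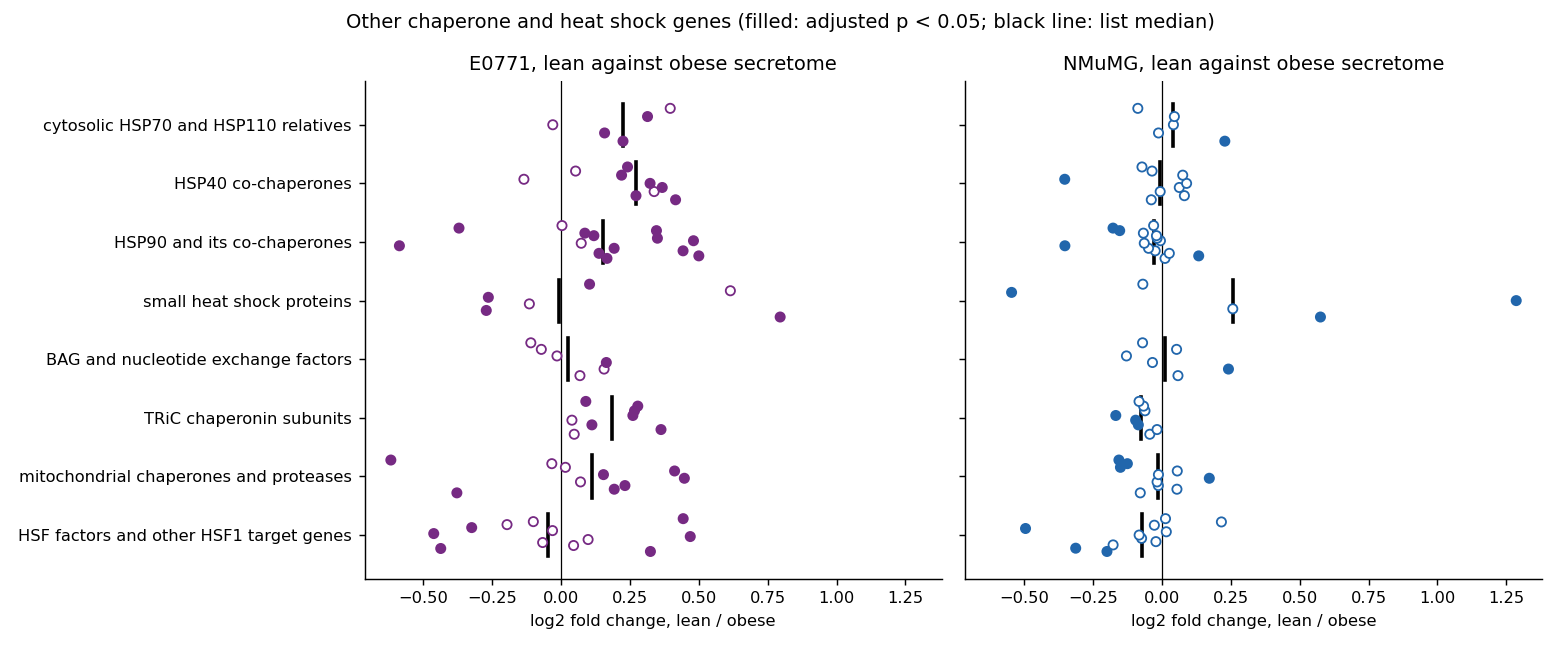
Log2 fold change, lean against obese, of each tested gene in the 8 lists of chaperone and heat shock genes (points, filled where the adjusted p was under 0.05) with the list median (black line), in E0771 and NMuMG. HSP40 co-chaperones and TRiC subunits have no filled point below 0 in E0771 and none above 0 in NMuMG.

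Across the 9 E0771 libraries the genes whose log2 CPM followed Hsph1 most closely were Ube2o, Ccl2, Tuft1, Layn and Akr1b3 (Pearson's r of 0.997 to 0.999 among 9548 genes). These values largely restate that the lean libraries stand apart. Among the members Hsp90aa1 (0.974), Hspa1b (0.959), Hspe1 (0.935) and Hspd1 (0.904) came closest, and Dnajb1 had r = -0.505. In NMuMG the closest were Rpusd3, Rab28, Ube2t, Hspa4l and Sik2 (r of 0.853 to 0.898 among 10194 genes), and Hsp90aa1 had r = -0.343. All are descriptions over libraries that share media and depth.

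In SkBr3 the 6 human members were tested. Between the lean and the obese secretome edgeR called 5 of 6, 1 higher and 4 lower, where 44.1% of all 14874 genes were called and 23.1% were called lower. HSPA8 was at 1859, 1751, 1901 and 1807 CPM with the lean secretome and at 2255, 2319, 2403 and 2305 CPM with the obese, with no overlap (-0.34, SE 0.03, adjusted p = 2.67e-07). DNAJB1 was at 191, 179, 195 and 192 CPM against 224, 237, 240.1 and 238 CPM (-0.31, SE 0.04, adjusted p = 1.11e-06). HSPA1A was at 73.3, 71.6, 87.5 and 72.6 CPM against 97.8, 90.6, 95.7 and 108 CPM (-0.37, SE 0.06, adjusted p = 6.30e-05). For these genes every lean library was below every obese one. Over the 6 members the lean and obese libraries did not overlap for 4, against 34.7% of all genes.

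HSPA1B was lower by less, at 64.0, 62.7, 68.2 and 68.8 CPM against 76.5, 68.9, 72.1 and 74.1 CPM (-0.14, SE 0.05, adjusted p = 0.0126), and its call was lost without lean replicate 2 (adjusted p = 0.0609) or obese replicate 1 (0.0546). HSPB1, the human small heat shock protein HSP27, was the 1 member that was higher, at 511, 487, 441 and 516 CPM against 409.8, 388, 409 and 456 CPM (0.23, SE 0.05, adjusted p = 0.000993), although lean replicate 3 lay within the obese range. HSPH1 was at 314, 328, 274 and 312 CPM against 288, 299, 291 and 286 CPM and was not called (0.08, SE 0.04, adjusted p = 0.152). Lean replicate 3 was the lowest of its group for HSPH1 and HSPB1 and the highest for HSPA1A, HSPA8 and DNAJB1. Without it HSPH1 was called higher (0.13, adjusted p = 0.00200), and the count of called members was 6, 2 higher and 4 lower.

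Set against control in SkBr3, 4 of 6 members were called with the lean secretome, where 48.8% of all genes were called. HSPA8 (-0.41, SE 0.03, adjusted p = 5.89e-09), DNAJB1 (-0.37, SE 0.04, adjusted p = 4.59e-08) and HSPA1A (-0.29, SE 0.06, adjusted p = 0.000494) were lower, from control levels of 2431 ± 30.2, 244 ± 2.94 and 92.8 ± 2.25 CPM (SD, n = 4). HSPB1 was higher, from 370.2 ± 14.0 CPM (0.40, SE 0.05, adjusted p = 3.04e-06). HSPA1B (-0.06, adjusted p = 0.326) and HSPH1 (0.00, adjusted p = 0.952) were not called, but summed with HSPA1A the HSP70 pair was called lower (-0.18, adjusted p = 0.00210). With the obese secretome edgeR called 0 of 6 against control, where 1.16% of all genes were called; 1 member had an unadjusted p under 0.05 and DESeq2 called 0. The libraries did not overlap for 4 of the 6 members, against 11% of all genes: HSPH1 (-0.08), DNAJB1 (-0.06) and HSPA8 (-0.07) lay below the controls and HSPB1 above. HSPB1 differed by 0.17 (adjusted p = 0.119) and was called without obese replicate 2 (0.20, adjusted p = 0.0496). As a share of all counts the 6 members summed to 0.296% ± 0.00554 with the lean secretome, 0.343% ± 0.00705 with the obese and 0.351% ± 0.00329 in control medium. The human and mouse lines were fitted apart, and differences between SkBr3 and the mouse lines were not tested. Only the 6 human IDs could be named, so Hsp90aa1, Hspd1, Hspe1, Bag3 and the lists above were not analysed here in SkBr3.

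**Figure D4:**
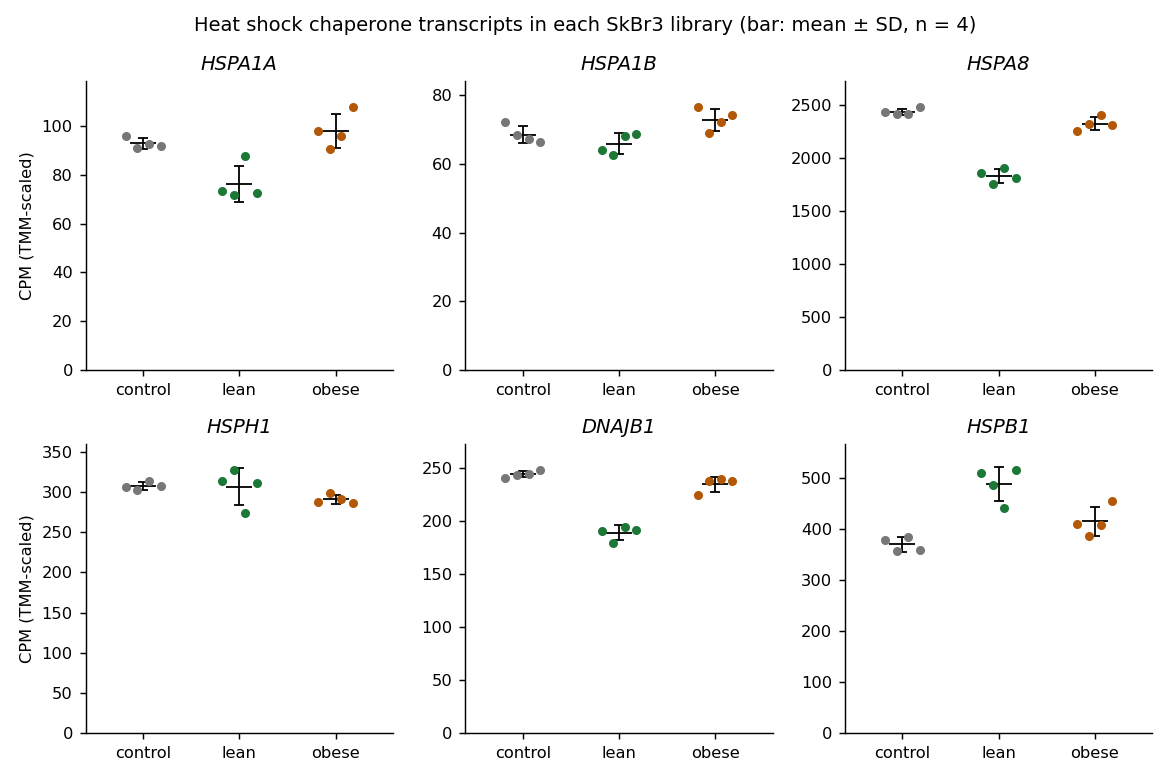
CPM of the 6 human members in every SkBr3 library (points) by medium, with the mean and SD (bars, n = 4), each panel on its own linear axis from 0. HSPA1A, DNAJB1 and HSPA8 have their 4 lean libraries below all others, and HSPB1 has its 4 lean libraries above all controls.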

How the data were processed

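Poly(A) RNA was sequenced as paired 150 bp reads from a directional library, per the labels' protocols. Per the submitters' processing notes cutadapt 1.16, STAR 2.7.9a, featureCounts 1.6.3 and the build GRCm39 were used; the human build, the strand setting and the treatment of reads with several matches are not given in the sources used here. The authors deposited raw counts per Ensembl gene ID, 1 table per species, with no normalization. Mouse symbols came from GENCODE M21 (52073 of 56980 IDs matched), and the human members were found by ID.

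Each line was fitted with its 3 media in edgeR 4.0.16 under R 4.3.3 (filterByExpr, TMM, robust quasi-likelihood F test), with Benjamini-Hochberg adjustment over all genes and a threshold of 0.05. Interactions and the comparison of controls used 1 fit of the 18 mouse libraries. The script was tested on simulated data. Replicates differed by 1.99 to 15.4 times counting error (chi-square per degree of freedom, 36 pairs). The members, lists and tests were chosen with earlier results of these data known. All members are named; list genes are named up to 2 per list, line and direction by size of called change in lean against obese (mean log2 CPM of at least 2), and the 5 genes most like Hsph1 by r. Chordc1, Stip1, Hsp90ab1, Hsf1, Gm15459, Rbm3 in E0771 and Cacybp in NMuMG were chosen after their values were seen. Alternatives were DESeq2 1.42.0, other scalings and filters, a replicate block, summed copies, 2 groups at a time, and each library left out.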

Additional observations from a re-analysis of the deposited data

Results flagged for a closer look

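In 18 SkBr3 groups of 4 libraries, 1 library stood apart from its group: HSPA1A was at 87.5 CPM in lean replicate 3, with the other 3 lean libraries at 71.6 to 73.3 CPM. Chance alone sets a library apart in about 1 in 20 such groups. That library also lay apart over all genes tested in SkBr3, by the leading principal components of log2 CPM (PC1 and PC2). It was at PC1 17.6 and PC2 -24.9, and the other lean libraries at PC1 29.7 to 40.9 and PC2 3.47 to 10.4. Its total, 19183007 counts, was the lowest of the lean group.

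By the interaction test the response of 8 of 9 tested members differed between E0771 and NMuMG for lean against obese. The same held for lean against control. Of all genes 34.2% and 34.5% were called in these comparisons. For lean against obese, the E0771 minus NMuMG differences on the log2 scale were 2.30 for Hspa1a, 1.27 for Hspa1b, 0.97 for Hsph1, 0.31 for Hspa8, 0.80 for Hsp90aa1, 0.40 for Hspd1, 0.28 for Hspe1 and 0.26 for Bag3. For lean against control they were 1.57 for Hspa1a, 1.31 for Hspa1b, 1.08 for Hsph1, 0.30 for Hspa8, 0.73 for Hsp90aa1, 0.32 for Hspd1, 0.19 for Hspe1 and 0.46 for Bag3. The E0771 counts behind Hspa1a were at most 22 per library. Leaving out certain single E0771 libraries lost the Bag3 call for lean against obese and the Hspa1a call for lean against control.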

How the results depend on the processing

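Over 112 results on single members and 1815 values under alternatives, 0 called values changed direction, 39 lost their call and 34 gained one; 85 results kept their side of the threshold throughout. Counts of called members moved by more than 1.5 times in few cases. With no filter on low counts, obese against control gave 1 called member instead of 0 in SkBr3 (HSPB1) and in E0771 (Hsp90aa1). With only the 2 groups compared in the fit, the count was 4 instead of 7 for lean against obese in E0771, 1 instead of 0 for obese against control in SkBr3, and 4 instead of 2 for obese against control in NMuMG. DESeq2 gave 2 instead of 4 for lean against control in NMuMG. Leaving out single libraries gave 0 to 1 for obese against control in SkBr3 and in E0771, 2 to 5 for lean against control and 1 to 3 for obese against control in NMuMG. The causes were not tested.

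Replicate numbers showed no clear sign of pairing, but the labels do not say what a number shares, so pairing cannot be settled. Same-numbered libraries of different media had deviations with r from -0.0942 to 0.110 in E0771. The range was -0.0285 to 0.0250 in NMuMG and -0.0452 to 0.0523 in SkBr3. With the replicate block Hspa1b in E0771, lean against obese, was not called (1.08, adjusted p = 0.0543).

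Depth limits Hspa1a in E0771, which had 2 to 22 counts per library.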
